A study of Mus musculus with 2 samples.

Results

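Teneurins, latrophilins and FLRTs are 3 families of cell-surface proteins that bind each other across the gap between neighbouring cells. The 10 genes described here are the teneurins Tenm1, Tenm2, Tenm3 and Tenm4, the latrophilins Adgrl1, Adgrl2 and Adgrl3, and the FLRT genes Flrt1, Flrt2 and Flrt3. They were chosen by name, each gene's identifier being matched to its symbol, and all 10 were found among the 43346 genes of the deposited tables. All 10 were present in newborn mouse forebrain at 5.58 TPM or more in each pup, where TPM is the deposited share of a gene's transcripts among all those of its library, corrected for transcript length. Their mean levels ran from 7.69 TPM for Flrt1 to 41.1 TPM for Adgrl2.

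Total RNA was measured in 2 mouse pups of strain B6NCrl at postnatal day 0, in pup 1 (replicate 1) and pup 3 (replicate 2), with 1 library made from the forebrain of each pup. Both pups belong to 1 group. The labels give no treatment, mutation or second tissue, state that the sex was not collected, and list the same donor identifier for both pups. Each library was made from 10 ng of RNA longer than 200 nt, and spike-in RNAs were used. Beyond the pup numbers nothing says how the samples were separated, so the spread between them may be partly technical. With 2 pups the smallest p that an exact sign-flip test, two-sided, can give is 0.5. No test was therefore made, and each value stands with both pups or with their SD.

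Teneurins are very large transmembrane proteins whose outer part carries a beta-propeller and a barrel-like fold, and which bind teneurins and latrophilins on opposing cells. Latrophilins are adhesion G protein-coupled receptors, of which Adgrl1 was found as the receptor for the spider toxin alpha-latrotoxin. FLRTs are leucine-rich repeat proteins that bind the olfactomedin domain of latrophilins and also bind Unc5 receptors. In the developing brain the 3 families act in axon guidance, in the migration of cortical neurons and in the choice of synaptic partners. Short exons decide in part which partner is bound: in teneurins a short insert in the beta-propeller, and in latrophilins a short insert between the lectin and olfactomedin domains, are known to alter binding.

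The exon sequences of these inserts are given because the results on splicing turn on them. They come from GENCODE M21 transcripts on build GRCm38, the same assembly as mm10. Each runs 5′ to 3′ along the transcript. Capitals mark the short exon, and lower case marks 15 nt of the neighbouring exon on each side. The beta-propeller insert was a 21-nt exon in all 4 teneurins, at chrX:42648394-42648414 on the minus strand in Tenm1, chr11:36054926-36054946 on the minus strand in Tenm2, chr8:48287133-48287153 on the minus strand in Tenm3 and chr7:96854717-96854737 on the plus strand in Tenm4.
Tenm1: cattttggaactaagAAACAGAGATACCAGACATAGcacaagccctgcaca
Tenm2: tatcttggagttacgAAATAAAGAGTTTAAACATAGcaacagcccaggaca
Tenm3: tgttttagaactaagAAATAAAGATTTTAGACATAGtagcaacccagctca
Tenm4: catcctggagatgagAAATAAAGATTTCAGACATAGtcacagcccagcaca
The exons of Tenm3 and Tenm4 were identical at 20 of 21 bases. Tenm2 matched Tenm3 at 19 and Tenm4 at 18 bases, and Tenm1 matched Tenm4 at 17, Tenm3 at 16 and Tenm2 at 14 bases.

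The latrophilin insert was a 15-nt exon, annotated in Adgrl1 at chr8:83926262-83926276 on the plus strand and in Adgrl3 at chr5:81509724-81509738 on the plus strand. The annotated coding model of Adgrl2 had no such exon.
Adgrl1: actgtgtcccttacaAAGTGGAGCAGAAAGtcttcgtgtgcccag
Adgrl3: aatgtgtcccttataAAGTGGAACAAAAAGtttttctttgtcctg
The pair was identical at 13 of 15 bases. Tenm3 and Tenm4 also carried a 27-nt exon, upstream of the 21-nt exon, at chr8:48313238-48313264 and chr7:96805105-96805131, which is shown because it goes with the 21-nt exon in the annotated models.
Tenm3: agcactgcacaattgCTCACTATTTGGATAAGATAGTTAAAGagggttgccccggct
Tenm4: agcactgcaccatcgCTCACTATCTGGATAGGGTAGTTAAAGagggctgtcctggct
The 27-nt exons were identical at 24 of 27 bases. Tenm1 also had a short exon upstream of its 21-nt exon, of 24 nt at chrX:42727337-42727360, held by all 3 spanning coding models.

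The libraries held 40066386 expected counts in pup 1 and 40431595 in pup 3, and the 10 genes took 0.101% of them in pup 1 and 0.0746% in pup 3. The label of forebrain was set against marker genes. All 7 forebrain markers (Emx1, Emx2, Dlx1, Dlx2, Tbr1, Neurod6 and Six3) reached 1 TPM in each pup, with a summed level of 436 TPM in pup 1 and 519.6 TPM in pup 3. Neurod6 was the highest of them, with 206 TPM in pup 1 and 329 TPM in pup 3, while Emx2, Six3, Dlx1 and Dlx2 were 2.44, 1.81, 1.38 and 1.12 times as high in pup 1 as in pup 3. None of the 6 midbrain and hindbrain markers reached 1 TPM in either pup. Their summed level was 0.22 TPM in pup 1 and 0.1 TPM in pup 3, with Hoxa2 and Hoxb2 at 0 in both pups. Of 6 markers of thalamus and hypothalamus 4 reached 1 TPM in each pup. The summed level of the 6 was 2.67 times as high in pup 1, at 293 TPM, as in pup 3, at 110 TPM. The summed levels of the endothelial markers were 137 TPM in each pup, and those of 4 meningeal and fibroblast markers 90.7 TPM in pup 1 and 112 TPM in pup 3. Of 3 choroid plexus markers 2 reached 1 TPM in each pup. The summed level of the 3 was 1379 TPM in pup 1 and 1075 TPM in pup 3, mostly from Ttr, at 1335 and 1043 TPM.

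The teneurins were considered first. Tenm4, which acts in the differentiation of oligodendrocytes, spans 740 kb (chr7:96171246-96911093, plus strand). It had 43.4 TPM in pup 1 and 21.2 TPM in pup 3, a mean of 32.3 ± 15.6 TPM (SD, n = 2), from 4045 and 2350 expected counts in the same order. The higher pup had more than 2 times the level of the lower. Tenm2, a ligand of Adgrl1, spans 1229 kb, the longest of the 10 (chr11:36006656-37235964, minus strand). It had 36.1 TPM in pup 1 and 20.7 TPM in pup 3, a mean of 28.4 ± 10.9 TPM.

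Tenm1, whose intracellular part is known to bind Mbd1, lies on the X chromosome (chrX:42527866-43429126, minus strand). Tenm1 had 24 TPM in pup 1 and 13.1 TPM in pup 3, a mean of 18.6 ± 7.68 TPM. Tenm3, which directs the matching of connections in the visual system and hippocampus, lies on chr8:48227682-48843951, minus strand. Tenm3 had 21.6 TPM in pup 1 and 14.9 TPM in pup 3, a mean of 18.2 ± 4.70 TPM. The ranges of Tenm1 and Tenm3 overlapped, and Tenm1 was the higher in pup 1 and Tenm3 in pup 3.

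Among the receptors, Adgrl2 and Adgrl1 were the highest of the 10 genes. Adgrl2, which acts at synapses of hippocampal neurons, had 44.9 TPM in pup 1 and 37.2 TPM in pup 3, a mean of 41.1 ± 5.46 TPM (chr3:148815583-148990555, minus strand). Adgrl1 had 49.4 TPM in pup 1 and 32.2 TPM in pup 3, a mean of 40.8 ± 12.1 TPM, and it is the shortest latrophilin gene at 41.9 kb (chr8:83900105-83941954, plus strand). The order of the pair turned between the pups, with Adgrl1 the higher in pup 1 and Adgrl2 in pup 3. Adgrl3, a receptor for FLRT3 and teneurins, had 31.5 TPM in pup 1 and 17.5 TPM in pup 3, a mean of 24.5 ± 9.88 TPM (chr5:81020138-81825133, plus strand).

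Flrt3, a ligand of latrophilins and Unc5 receptors and a partner of Robo1 in thalamic axons, led its family. Flrt3 had 33.0 TPM in pup 1 and 31.1 TPM in pup 3, a mean of 32.1 ± 1.32 TPM, the smallest spread of the 10 genes (chr2:140650914-140671469, minus strand). Flrt2, which repels migrating neurons that carry Unc5d, had 14.5 TPM in pup 1 and 10.8 TPM in pup 3, a mean of 12.6 ± 2.66 TPM (chr12:95692226-95785215, plus strand). Flrt1, which can bind Fgfr1, had 9.80 TPM in pup 1 and 5.58 TPM in pup 3, a mean of 7.69 ± 2.98 TPM, the lowest of the 10 (chr19:7092001-7105729, minus strand). In each pup Flrt3 lay above Flrt2 and Flrt2 above Flrt1.

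In each pup 10 of 10 genes reached 1 TPM, against a background of 60.7% of 21474 annotated protein-coding genes. All but Flrt1 reached 10 TPM in each pup, against a background of 36.3%. The levels and percentiles here sum all transcript models of a gene, short and non-coding ones included. On complete coding models, defined below, Tenm1, Tenm3, Tenm4 and Adgrl3 also lay below 10 TPM in at least 1 pup. Among the 13030 protein-coding genes detected in both pups, the median mean level was 17.0 TPM, and that of the 10 genes was 26.5 TPM. Adgrl2 stood at percentile 71.5 of those genes, Tenm4 at 65.9, Tenm2 at 62.8, Tenm1 at 52.4 and Flrt1 at 30.4. The genes were read in bulk tissue, so fewer cells of a type and less RNA per cell cannot be told apart.

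**Figure D1:**
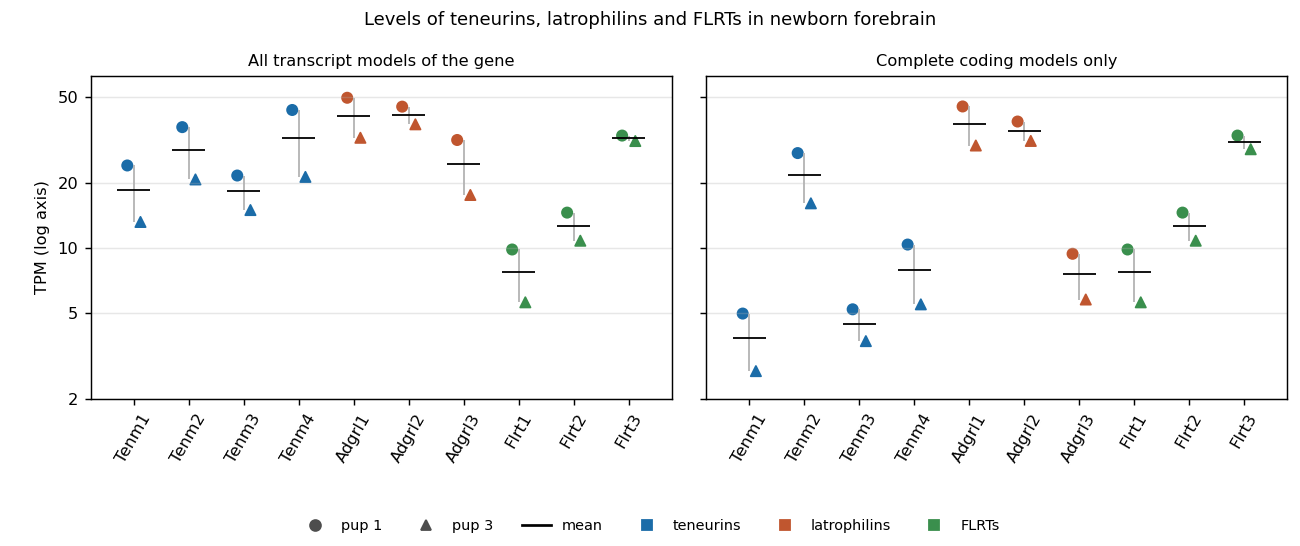
Level of each gene in TPM on a log axis, with circles for pup 1, triangles for pup 3 and a black bar for their mean; the left panel sums all transcript models of the gene and the right panel only complete coding models. On the left the means run from 7.69 TPM (Flrt1) to 41.1 TPM (Adgrl2), and on the right Tenm1 and Tenm4 lie below Flrt2, and Adgrl1, Adgrl2 and Flrt3 are the 3 highest.

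Levels were next compared between genes within each pup. A pair of genes was taken to differ beyond the spread between the pups where the mean log2 ratio of TPM + 0.1 was larger than 3 SD and had the same sign in both pups, which held for 6 of the 12 pairs within families. Flrt3 over Flrt1 was 3.34 in pup 1 and 5.50 in pup 3, a mean log2 ratio of 2.10 ± 0.51. Flrt3 over Flrt2 was 2.26 in pup 1 and 2.88 in pup 3. Adgrl1 over Adgrl3 was 1.57 in pup 1 and 1.84 in pup 3, whereas Adgrl2 over Adgrl1 was 0.91 in pup 1 and 1.15 in pup 3 and did not pass. Tenm2 over Tenm1 was 1.5 in pup 1 and 1.57 in pup 3, Tenm4 over Tenm1 1.80 and 1.61, and Tenm2 over Tenm3 1.67 and 1.38. Tenm4 over Tenm2, at 1.20 in pup 1 and 1.03 in pup 3, did not pass.

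By mean TPM the order was Adgrl2, Adgrl1, Tenm4, Flrt3, Tenm2, Adgrl3, Tenm1, Tenm3, Flrt2 and Flrt1. Of the 9 neighbouring pairs in that order, 3 differed beyond the spread between pups: Tenm2 over Adgrl3, Adgrl3 over Tenm1 and Tenm3 over Flrt2. The order of Tenm3 and Flrt2 depended on which transcript models were counted, as given below. The 4 neighbouring pairs from Adgrl2 down to Tenm2 did not differ beyond it, nor did Tenm1 from Tenm3 or Flrt2 from Flrt1. Summed over families, latrophilins held 40.8% of the TPM of the 10 genes in pup 1 and 42.5% in pup 3. Teneurins held 40.6% in pup 1 and 34.2% in pup 3, and FLRTs 18.6% in pup 1 and 23.2% in pup 3. Within the FLRTs, Flrt3 took 57.6% in pup 1 and 65.6% in pup 3.

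The level of a gene in TPM adds up all its transcript models, and a short model weighs more per read than a long one. The tables held 84 models for the 10 genes, of which 57 were above 0 in at least 1 pup and 27 were at 0 in both. The model with the largest share of the gene's TPM was the same in both pups for all 10 genes. It was a complete coding model for 6 of them, and by expected counts the leading model was complete for 9 of 10 in each pup. A complete coding model is one annotated as protein-coding, without a tag for a missing end, whose coding length is at least 75% of the longest of its gene.

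Tenm4 shows the gap most plainly. Its leading model Tenm4-209, a 708-nt partial coding model, held 69.9% of the gene's TPM in pup 1 and 70.6% in pup 3, but 11.4% of its expected counts in pup 1 and 10.9% in pup 3. The complete model Tenm4-201 held 14.2% of TPM in pup 1 and 13.2% in pup 3, and 50.9% and 45.1% of counts. In Tenm1 the 1143-nt non-coding model Tenm1-204 led with 56.8% of TPM in pup 1 and 55.1% in pup 3. The retained-intron model Tenm1-206 followed with 19.9% in pup 1 and 22.5% in pup 3, and the complete model Tenm1-203 held 16.9% in each pup. By counts Tenm1-203 led with 56.1% in pup 1 and 55.9% in pup 3.

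Tenm2 and the shorter latrophilin genes were read mostly from coding models. Tenm2-202 held 75.8% of TPM in pup 1 and 77.5% in pup 3 and was the one complete model of Tenm2 above 0. The 368-nt model Tenm2-207 held 17.5% of TPM in pup 1 and 19.3% in pup 3, with 0.62% and 0.67% of counts. Adgrl1-207 held 88.7% of the TPM of Adgrl1 in pup 1 and 89.8% in pup 3, and Adgrl2-202 held 85.3% and 83.8% of that of Adgrl2. The rest of Adgrl2 was mostly the retained-intron model Adgrl2-201, at 14.4% in pup 1 and 13.2% in pup 3.

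Tenm3 and Adgrl3 were spread over more models. In Tenm3 the 639-nt partial model Tenm3-202 led with 37.6% of TPM in pup 1 and 24.6% in pup 3. A 7827-nt model that has no entry in GENCODE M21 held 27.4% of TPM in pup 1 and 23.4% in pup 3, and 44.1% and 40.4% of counts. The complete model Tenm3-201 held 10.7% of TPM in pup 1 and 17.7% in pup 3. Adgrl3 had 32 models, 16 of them at 0 in both pups, and its leading model Adgrl3-228 retains an intron and held 28.2% in pup 1 and 24.6% in pup 3. The non-coding model Adgrl3-232 held 12.6% in pup 1 and 20.2% in pup 3, and the partial coding model Adgrl3-220 held 10.7% and 13.7%. Its leading complete model by counts was Adgrl3-211 in pup 1, with 28.8% of counts, and Adgrl3-202 in pup 3.

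The FLRT genes have a coding sequence that lies in 1 exon, of 2022 nt in Flrt1, 1980 nt in Flrt2 and 1947 nt in Flrt3. Flrt1 had 1 model. Flrt2-201 held 71.7% of TPM in pup 1 and 75.6% in pup 3, and Flrt2-202, with the same coding sequence, the rest. Flrt3-202 held 55.7% in pup 1 and 50.9% in pup 3, and Flrt3-201, again with the same coding sequence, 44.3% and 40.7%. The models of Flrt2 and the coding models of Flrt3 thus differ outside the protein-coding part.

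**Figure D2:**
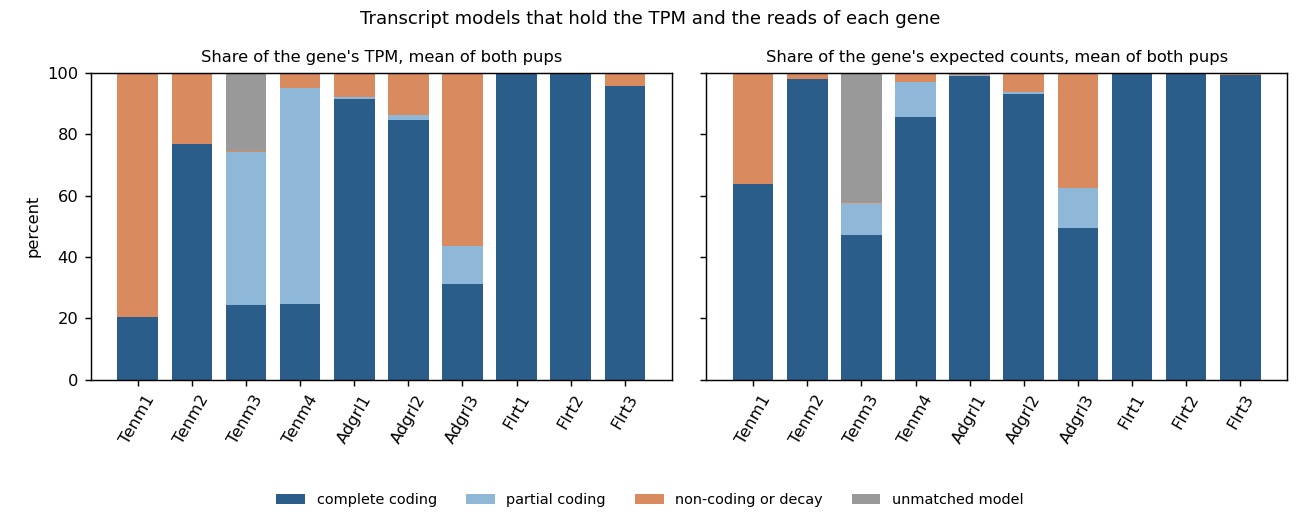
Percent of each gene's TPM (left) and of its expected counts (right) held by complete coding, partial coding, non-coding or decay, and unmatched transcript models, as the mean of both pups. Complete coding models hold 20.5% of the TPM and 63.8% of the counts of Tenm1, 24.8% of the TPM and 85.7% of the counts of Tenm4, and at least 95.8% of both in the FLRT genes.

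When only complete coding models were summed, the order of levels changed. Adgrl1 then had 45.0 TPM in pup 1 and 29.7 TPM in pup 3, Adgrl2 38.3 and 31.2 TPM, and Flrt3 33.0 and 28.5 TPM, and these were the 3 highest. Tenm2 followed with 27.4 TPM in pup 1 and 16.0 TPM in pup 3 and was the highest teneurin. Tenm4 came to 10.3 TPM in pup 1 and 5.46 TPM in pup 3, so that Tenm2 over Tenm4 was 2.64 in pup 1 and 2.90 in pup 3, beyond the spread between the pups. The order of Tenm2 and Tenm4 thus depended on which models were counted. On this measure 8 of the 12 pairs within families differed beyond the spread.

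Adgrl3 came to 9.36 TPM in pup 1 and 5.75 TPM in pup 3 of complete coding models, Tenm3 to 5.18 and 3.69 TPM and Tenm1 to 4.95 and 2.68 TPM, the lowest of the 10. With its 7827-nt unmatched model added, Tenm3 had 11.1 TPM in pup 1 and 7.18 TPM in pup 3. With or without that model Tenm3 lay below Flrt2, which had 14.5 TPM in pup 1 and 10.8 TPM in pup 3. The order of these 2 genes was thus the reverse of that over all models. On complete coding models teneurins held 24.2% of the 10 genes' TPM in pup 1 and 20.0% in pup 3, and FLRTs held 29.0% in pup 1 and 32.2% in pup 3. Latrophilins remained the family with the largest share in both pups, at 46.9% in pup 1 and 47.8% in pup 3.

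The short exons were examined through the models that hold them. For each exon the TPM of the protein-coding models that contain it was divided by that of all protein-coding models that span its position. It is estimated from reads over the whole transcript, not from reads across the exon's junctions. The 7 teneurin and latrophilin genes had 21 internal coding exons of 60 nt or less, of which 14 were absent from at least 1 spanning coding model and 19 were a multiple of 3 in length. The FLRTs, with coding sequence in 1 exon, had none.

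The estimated share of the 21-nt exon was read in each teneurin, and whether its use differed between them was not tested. In Tenm2 all 3 spanning coding models contained it, so its share was 100% in each pup by annotation. In Tenm1 it was contained in 2 of 3 models, Tenm1-201 and Tenm1-203, and the model without it was listed at 0 TPM, which gave 100% in each pup. By the posterior mean TPM, in which the model without the exon was above 0, the Tenm1 share was 92.4% in pup 1 and 75.5% in pup 3. In Tenm4 it was 40.5% in pup 1 and 48.7% in pup 3, carried by Tenm4-202 and Tenm4-203, from 3421 spanning counts in pup 1 and 2042 in pup 3.

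In Tenm3 the share of the 21-nt exon was 44.6% in pup 1 and 71.5% in pup 3, carried by Tenm3-201, from 1158 spanning counts in pup 1 and 923 in pup 3. By the posterior mean TPM it was 43.9% in pup 1 and 66.5% in pup 3, the latter beside 75.5% in Tenm1. The deposited interval of Tenm3-201, from 0.048 to 3.44 TPM in pup 1, contains that of pup 3, from 1.51 to 3.18 TPM, so the difference in share between the pups is not resolved. In both genes the 27-nt exon had the same shares, since the same models hold both exons. Models of Tenm3 and Tenm4 were among 8 whose length in the deposited tables differed from GENCODE M21, from which the exons were read, and the unmatched Tenm3 model entered no share. The values for these genes therefore hold only as far as the older models have the same exons.

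The 15-nt latrophilin exon was read in the same way in Adgrl1 and Adgrl3. In Adgrl1 the models with it, Adgrl1-204 and Adgrl1-210, held 2.64% of the TPM of spanning coding models in pup 1 and 2.49% in pup 3, from 167 of 8976 counts in pup 1 and 117 of 6701 in pup 3. In Adgrl3 the exon was in 18 of 19 spanning coding models and its share was 100% in each pup, the model without it being listed at 0. That model, Adgrl3-201, has an 11-nt exon after the same 15 upstream bases. Each spanning coding model of Adgrl3 thus holds the 15-nt or the 11-nt exon. Skipping of both could not be seen, and a high share was largely fixed by annotation. By the posterior mean TPM the share of the 15-nt exon was 95.9% in pup 1 and 96.0% in pup 3. The models with it above 0 were Adgrl3-202, Adgrl3-203, Adgrl3-204, Adgrl3-211, Adgrl3-216 and Adgrl3-217, which are also those that hold the 39-nt exon of Adgrl3 described next. Among all spanning Adgrl3 models, including those annotated as non-coding, the share was 66.7% in pup 1 and 59.4% in pup 3. The coding TPM of Adgrl1 was thus mostly assigned to a model without the insert. That of Adgrl3 was assigned to models with it, where the annotation offered no coding model without an insert, so the 2 genes cannot be contrasted on this. The Adgrl1 models differ elsewhere too: Adgrl1-207, without the exon, has 8181 nt and Adgrl1-210, with it, 5734 nt. Adgrl1-205, also without it, has 5719 nt and was at 0 TPM in both pups. How far these shares follow use of the exon itself was not tested.

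Further short exons lie elsewhere in the latrophilin genes. A 27-nt exon of Adgrl3, held by Adgrl3-202 and Adgrl3-211, had a share of 60.2% in pup 1 and 57.6% in pup 3. The 27-nt exon of Adgrl2, identical to it at 21 of 27 bases, was in the only coding model that spans it. An 18-nt exon of Adgrl3, held by Adgrl3-202 and Adgrl3-217, had 21.7% in pup 1 and 31.7% in pup 3. A 52-nt form with the same start, held by Adgrl3-204 and Adgrl3-211, had 48.1% in pup 1 and 34.0% in pup 3. A 39-nt exon was present in all spanning coding models of Adgrl1 and Adgrl2, and a 39-nt exon of Adgrl3, identical to that of Adgrl2 at 25 of 39 bases, had 73.5% in pup 1 and 70.6% in pup 3. It was in 19 of 20 spanning coding models of Adgrl3. The model without it was the partial model Adgrl3-220, so the remainder is the TPM of that 1 incomplete model. Among all spanning models, including non-coding ones, the share was 53.2% in pup 1 and 47.6% in pup 3.

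**Figure D3:**
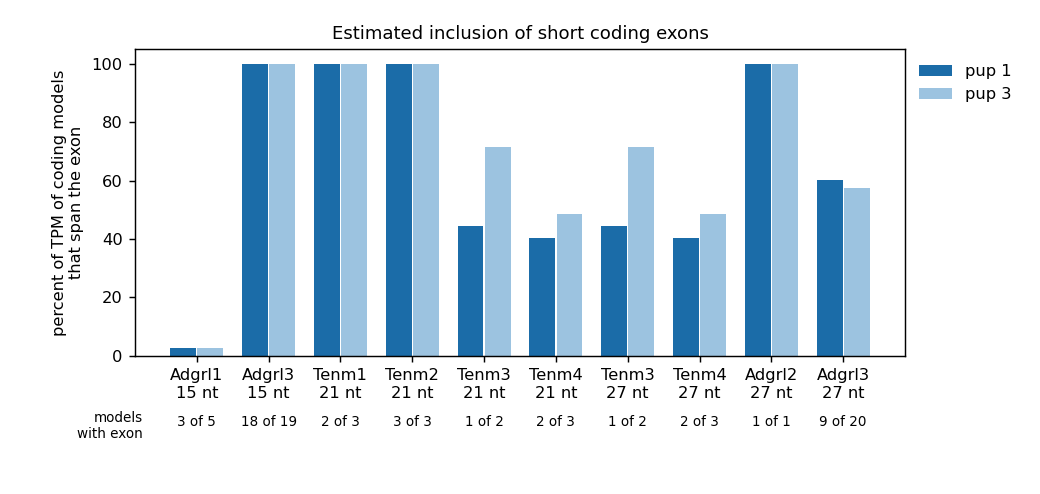
Percent of the TPM of coding models spanning a 15-, 21- or 27-nt exon that belongs to models containing it, with dark bars for pup 1 and light bars for pup 3; the numbers under the axis give the models with the exon of those that span it. The 15-nt exon is near 0 in Adgrl1 (2.64% in pup 1, 2.49% in pup 3) and at 100% in Adgrl3, and the 21-nt exon is at 100% in Tenm1 and Tenm2 and between 40.5% and 71.5% in Tenm3 and Tenm4. The value of the 21-nt exon is fixed by annotation in Tenm2 and rests on 1 model listed at 0 TPM in Tenm1. That of the 15-nt exon in Adgrl3 is largely fixed by annotation.

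The pups were then compared with each other, as the spread behind every level above. All 10 genes were higher in pup 1, against a background of 80.4% of the 14985 genes with a mean of 1 TPM or more. The ratio of pup 1 over pup 3 ran from 1.06 in Flrt3 to 2.04 in Tenm4, with a median of 1.64, and the median of all detected protein-coding genes was 1.20. Tenm4 was the 1 gene of the 10 past 2-fold, against a background of 5.45% of genes in either direction and 4.82% with pup 1 higher. The deposited intervals of the pups did not overlap for 9 of 10 genes, all but Flrt3, against a background of 53.6%.

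Scaling the expected counts by TMM, a correction for differences in library composition, moved the median of all detected protein-coding genes to a log2 ratio of -0.01, from 0.27 in TPM. The log2 ratio of Tenm4 was then 0.67, that of Tenm1 0.57, that of Flrt1 0.53, that of Tenm2 0.49 and that of Adgrl3 0.46. With TMM 9 of the 10 genes were higher in pup 1, against a background of 49.1%, and none was past 2-fold, against a background of 2.7%. That background holds genes of all lengths, and the ratio moved with gene length also with TMM, as given below. Flrt3 had a log2 ratio of -0.10 and Adgrl2 one of 0.00, so for these the direction turned or was lost with the scaling. With DESeq2's size factors 8 were higher in pup 1.

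The ratio between the pups moved with the length of genes. The median ratio of pup 1 over pup 3 in TPM was 1.08 in detected protein-coding genes that span under 10 kb, 1.21 from 10 to 100 kb, 1.39 from 100 to 500 kb and 1.57 in the 198 genes that span 500 kb or more. Tenm1, Tenm2, Tenm3, Tenm4 and Adgrl3 belong to the longest class, with ratios of 1.82, 1.74, 1.44, 2.04 and 1.79. Flrt1, which spans 13.7 kb, had a ratio of 1.74, and Flrt3, which spans 20.6 kb, one of 1.06. By effective length of the transcripts the median ratio in TPM was 0.96 under 1 kb, 1.32 from 3 to 5 kb and 1.45 at 5 kb or more. On that measure Flrt1, at 5760 nt, belongs to the longest class. Flrt3, at 3593 nt in pup 1 and 3345 nt in pup 3, belongs to the class from 3 to 5 kb. The markers of thalamus and hypothalamus also moved with the pups, at 2.67 times the summed level in pup 1, and Tcf7l2, the highest of them, had 243 TPM in pup 1 and 93.1 TPM in pup 3. The part of gene length, of these markers or of dissection in the ratios of the 10 genes was not tested.

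**Figure D4:**
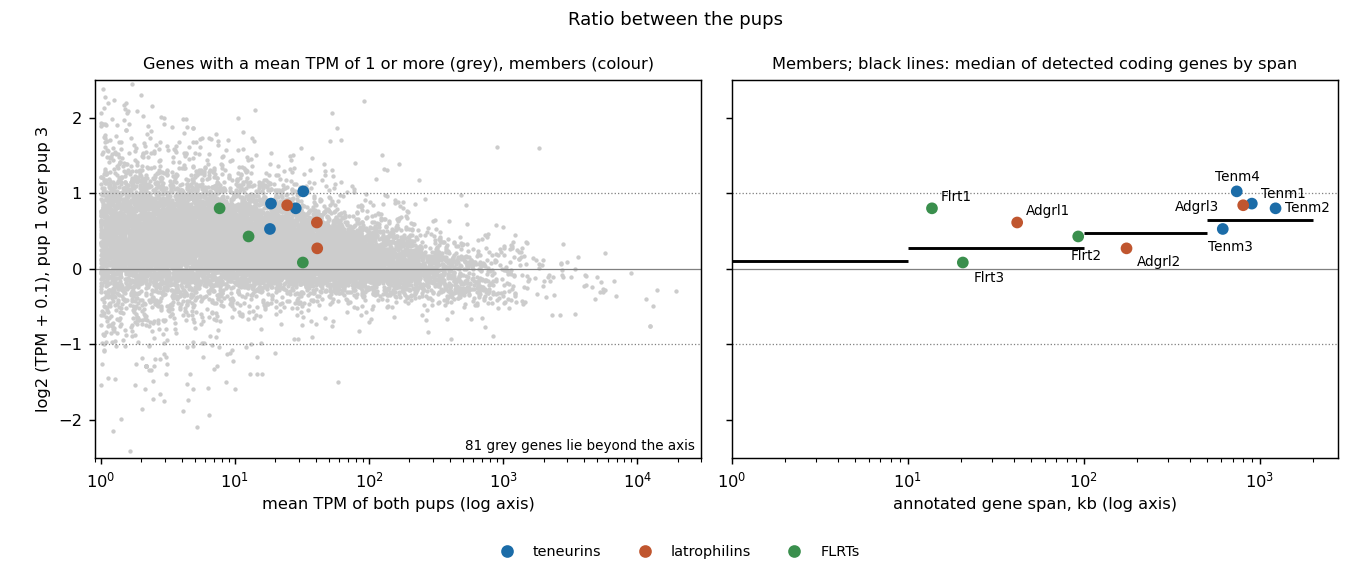
Log2 ratio of TPM + 0.1 of pup 1 over pup 3 against mean TPM (left; grey points are the 14985 genes with a mean of 1 TPM or more, of which 81 lie beyond the axis) and against the annotated span of the gene (right; black lines are medians of detected protein-coding genes by span class). Dotted lines mark 2-fold, all 10 coloured genes lie above 0, and Tenm4 alone reaches 2-fold.

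A further view came from a list of 14 genes, made of known partners of the 3 families, the protease Furin and Adgrl4 of the latrophilin group. Of these, 13 were detected at 1 TPM or more in both pups, against a background of 60.7% of protein-coding genes, and Unc5b was not, at 1.36 TPM in pup 1 and 0.86 TPM in pup 3. The median of their mean levels was 9.79 TPM, beside 17.0 TPM for all detected protein-coding genes. All 14 were higher in pup 1, with a median ratio of 1.46, against a background of 80.4% of genes. Past 2-fold were 2 of them, Shank1 and Unc5d, against a background of 5.45%. With TMM 12 of 14 were higher in pup 1, against 49.1% of genes, Unc5a and Furin had ratios of 0.96 and 0.92, and none was past 2-fold, against 2.7% of genes, with Unc5d at 1.73 and Shank1 at 1.66. Shank1, a postsynaptic scaffold that binds the tail of latrophilins, had 24.7 TPM in pup 1 and 12 TPM in pup 3, and Unc5d 6.08 and 2.87 TPM.

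The receptors of the FLRTs differed in level. Unc5a had 19.5 TPM in pup 1 and 16.5 TPM in pup 3, and Unc5c 8.20 and 4.85 TPM. Robo1, an axon guidance receptor, had 20.8 TPM in pup 1 and 16.7 TPM in pup 3, and Fgfr1, a growth factor receptor, 25.7 and 16.6 TPM. Unc5b and Unc5d were thus the lowest of the Unc5 receptors in both pups. The scaffolds Shank2 and Shank3 had 7.45 and 8.92 TPM in pup 1 and 4.10 and 4.58 TPM in pup 3, below Shank1 in each pup.

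Among teneurin partners, Dag1, the dystroglycan precursor, had 66.7 TPM in pup 1 and 53.1 TPM in pup 3, above every teneurin in both pups and the highest of the 14. Mbd1, a methyl-DNA binding protein, had 21.4 TPM in pup 1 and 16.8 TPM in pup 3. Furin, a protease of the secretory pathway that can cleave teneurins, had 6.66 TPM in pup 1 and 5.65 TPM in pup 3. Cntn6, a contactin that binds Adgrl1, had 14.0 TPM in pup 1 and 11.1 TPM in pup 3. Adgrl4, a receptor of the latrophilin group known from endothelium, had 8.26 TPM in pup 1 and 5.88 TPM in pup 3, below Adgrl1, Adgrl2 and Adgrl3.

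**Figure D5:**
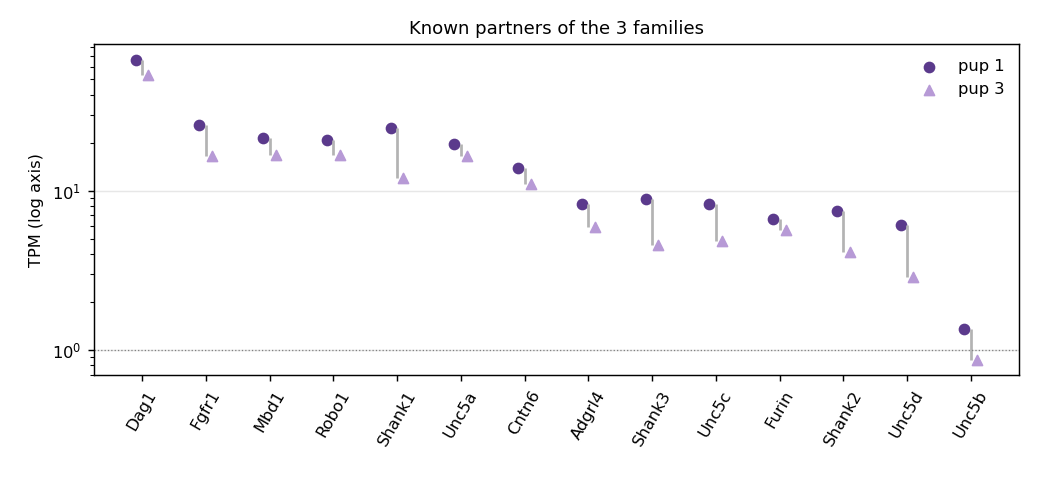
Level in TPM on a log axis of the 14 listed genes (known partners of the 3 families, Furin and Adgrl4), ordered by mean, with circles for pup 1, triangles for pup 3 and a dotted line at the detection threshold of 1 TPM. Dag1 is highest (66.7 TPM in pup 1, 53.1 TPM in pup 3), and Unc5b is lowest and lies below the line in pup 3.

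Several of the 10 genes share their locus with other genes, and the use of strand in the counting is not stated. Flrt3 lies within Macrod2 on the opposite strand with no shared exon bases, and Macrod2 had 69.5 TPM in pup 1 and 82.6 TPM in pup 3. The counts of Macrod2 equalled 83.7% of those of Flrt3 in pup 1 and 103% in pup 3. Flrt1 lies likewise within Macrod1, at 6.78 TPM in pup 1 and 6.99 TPM in pup 3, with counts equal to 14.1% and 25.6% of those of Flrt1. Sh2d1a overlaps the end of Tenm1 by 1465 exon bases on the opposite strand and had 344 counts in pup 1 and 215 in pup 3, equal to 15% of the counts of Tenm1 in each pup. The antisense gene Gm16054 shares 1582 exon bases with Adgrl3 and had 66.8 counts in pup 1 and 23.0 in pup 3. On the opposite strand, Gm19744 shares 114 exon bases with Tenm3 and had 67.4 counts in pup 1 and 85 in pup 3. Gm10644 shares 1107 with Adgrl1 (23.4 and 8.55 counts), and C230038L03Rik 988 with Tenm4 (12 and 11.4 counts). Values of Tenm1, Tenm3, Tenm4, Adgrl1 and Adgrl3 may hold reads of these neighbours. Those of Flrt1 and Flrt3 may hold reads from unspliced RNA of Macrod1 and Macrod2. The division cannot be told from the deposited values.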

How the data were processed

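Total RNA libraries of 2 newborn forebrains were used. Quantification used mm10 and GENCODE M4, per the deposited notes; for the aligner, the quantifier and the strand setting, nothing is given in the sources used here. The authors deposited expected counts, in which reads shared by several features are divided. The deposited TPM and FPKM are normalized for effective length. The deposited interval bounds, a signal in TPM, surround a posterior mean TPM, with a level that no source used here states. The deposited percent is the share of a transcript in its gene's TPM.

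Symbols, models and exons came from GENCODE M21 on GRCm38. Of 84 models 83 matched and 75 had the same length. Ratios used a pseudocount of 0.1, which understates differences of low genes, and genes whose mean TPM was at least 1. Expected counts were rounded for TMM (edgeR 4.0.16) and size factors (DESeq2 1.42.0, R 4.3.3), which served only as scalings with a count minimum of 10. The remaining steps ran in Python 3.11.15 with pandas 2.3.3, numpy 2.4.6, matplotlib 3.10.9 and scipy 1.17.1. Only the call between pups, at 1.5-fold, and the rule for pairs were checked on simulated data. Named were all 10 genes, their listed partners, overlapping genes, the leading models, models with 10% or more of a gene's TPM in both pups, and models with a described short exon. Some genes of the lists are not reported here and were left out of their counts. Genes and lists were chosen with earlier results of these data known. Alternatives were other units, scalings, pseudocounts, thresholds and each pup alone; complete coding models and reads per kilobase of the longest model were added after seeing the data.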

Additional observations from a re-analysis of the deposited data

How the results depend on the processing

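No paired analysis was possible because both pups belong to 1 group. The teneurin share of the 10 genes (37.4%) was 22.1% on complete coding models and 25.1% on reads per kilobase of the longest model. The latrophilin share (41.7%) was 46.2% by expected counts, 47.3% on complete coding models and 48.9% on reads per kilobase. The FLRT share (20.9%) was 17.4% by expected counts, 25.4% on protein-coding transcripts, 30.6% on complete coding models and 26.0% on reads per kilobase. In single pups teneurins ran from 34.2% to 40.6%, latrophilins from 40.8% to 42.5% and FLRTs from 18.6% to 23.2%, and all 10 genes were detected in each. The percent of genes past 2-fold between pups (5.45) was 2.70 with TMM, 2.68 with DESeq2's size factors, 2.57 with a pseudocount of 1, 2.90 at a mean TPM of 5 or more and 21.5 at 1.5-fold. Of the 10 genes 1 was past 2-fold; 0 were with TMM, DESeq2's size factors, posterior mean TPM, TPM rescaled over protein-coding genes or a pseudocount of 1, and 6 at 1.5-fold. The other 51 alternative values of these summaries stayed within the pup spread or 1.5 times the main count, with 6 to 9 pairs beyond the spread. The causes were not tested. Counts per gene ran from 904 to 9068 in the 2 pups, and counting error was not estimated. On complete coding models the mean level moved by more than the SD between pups for Tenm1 (18.6 to 3.8 TPM) and Tenm3 (18.2 to 4.4 TPM). The same held for Tenm4 (32.3 to 7.9 TPM), Adgrl2 (41.1 to 34.8 TPM) and Adgrl3 (24.5 to 7.6 TPM). It stayed within that SD for Tenm2, Adgrl1, Flrt1, Flrt2 and Flrt3. Both the spread between pups and the choice of models thus limit the levels.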
